A study of Arabidopsis thaliana with 21 samples.

Results

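The 2 wild-type accessions of a seedling RNA sequencing series of Arabidopsis thaliana, Landsberg erecta (Ler) and Columbia-0 (Col-0), were compared across all genes. The libraries were chosen by their titles, 3 of Ler and 3 of Col-0, of 21 in the series. All groups were whole seedlings kept on MS plates lacking sucrose under 16 h of daily light at 22 °C and frozen 14 days after germination, and each group held 3 biological replicates. Library preparation started from 5 ug of total RNA per sample, from which poly(A) RNA was isolated. The other groups carry mutations in ASIL1 and ASIL2, which encode trihelix transcription factors, and 3 of them served as a second pair of accessions: the single mutants asil1-1 and asil2-1 in Col-0 and asil2-2 in Ler. The double mutants asil1-1 asil2-1 (Col-0) and asil1-1 asil2-2 (a cross of the accessions) were not compared here. They entered the choice of tested genes, the scaling and the estimate of the spread.

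Col-0 is the accession from which the Arabidopsis reference genome was made, and Ler is a laboratory line that carries a mutation in ERECTA, a receptor kinase gene that shapes organ length and stomatal spacing. The accessions are known to differ in glucosinolates, the sulphur-rich defence compounds of the cabbage family, in the plant immune receptors called NLR proteins, and in flowering time genes. Such differences can come from deleted or duplicated genes, from altered promoters, or from regulators lying elsewhere in the genome. Because the reads of every library were set against the Col-0 reference, Ler reads that differ from that reference may be counted less completely, and the part this plays in any level given here was not tested.

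Ler and Col-0 seedlings differed in 7077 of 19589 tested genes, of which 3501 were higher in Ler and 3576 lower. A gene was called when its adjusted p was under 0.05 in edgeR's quasi-likelihood test with Benjamini-Hochberg adjustment over all tested genes, the test behind every adjusted p given here. The calls made up 36.1% of the genes tested, 17.9% higher and 18.3% lower. With a change of at least 2-fold also required, 648 genes were higher (3.31%) and 1735 lower (8.86%), so the larger changes lay mostly on the side of lower counts in Ler. The median log2 fold change over all tested genes was 0.02. Levels are given as CPM, the counts of a gene scaled to a common sequencing depth with each library's TMM-adjusted total, and log2 fold changes with their standard error compare Ler with Col-0 unless said otherwise. CPM is not divided by gene length, so it compares libraries and not genes.

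**Figure D1:**
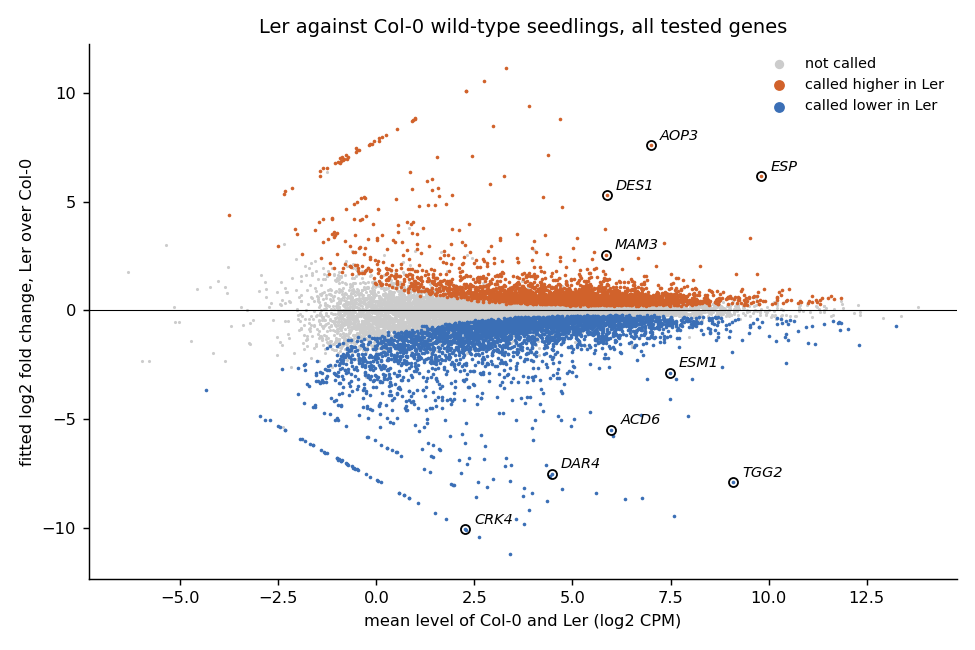
Mean level of each tested gene over the 6 wild-type libraries (horizontal axis, log2 CPM) against its log2 fold change, Ler minus Col-0 (vertical axis). Orange points were called higher in Ler (3501 genes), blue points lower (3576) and grey points were not called; circles mark genes named in the text, and the diagonal streaks are genes with no count in 1 accession, whose fitted fold change depends on the prior count.

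The 6 libraries held 8405844 to 10285620 counted reads in Col-0 and 6522764 to 28794135 in Ler, and 20613 to 21901 of 24100 loci had at least 1 count. ASIL1 was counted at 35.01, 32.6 and 33.3 CPM in Col-0 and at 29.4, 36.0 and 33.6 CPM in Ler, and ASIL2 at 32.7, 33.2 and 48.5 CPM and at 26.8, 33.9 and 34.1 CPM, so neither factor differed between the wild types (log2 fold changes −0.02 and −0.26, adjusted p = 0.932 and 0.329). Among the wild types Col-0 replicates 1 and 2 were highest in root markers. The mean centred log2 level of the 14 tested root marker genes was 1.35 and 1.45 in them, 0.07 in Col-0 replicate 3 and 0.93, 0.17 and −0.28 in Ler. Col-0 also had relatively more counts on short transcripts. Each gene's log2 level was centred on its mean over all 21 libraries. The median of these values for genes above 4000 nt of exon minus that for genes of at most 800 nt was −0.77, −0.77 and −1.08 in Col-0 and 0.24, −0.42 and 0.03 in Ler. Across 19485 genes the fold change correlated with exon length at Spearman's rho 0.284, a description over genes that share the same libraries. In whole seedlings, fewer cells of a type and less RNA per cell cannot be told apart.

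Genes that make or break down glucosinolates held some of the largest differences. AOP3 (AT4G03050, chr4:1343845-1346436), which makes hydroxyalkyl glucosinolates, was counted at 0.602, 0.661 and 2.71 CPM in Col-0 and at 252, 269 and 242 CPM in Ler. The log2 fold change was 7.58 ± 0.35, or 192-fold higher in Ler (adjusted p = 7.37e-12). ESP (AT1G54040, chr1:20170715-20173949), the epithiospecifier protein that turns glucosinolate breakdown toward nitriles, was at 26.4, 24.4 and 23.1 CPM in Col-0 and at 1862, 1710 and 1767 CPM in Ler, means of 24.6 ± 1.64 and 1780 ± 76.7 (SD, n = 3). It rose 72.3-fold (6.18 ± 0.21, adjusted p = 4.3e-15). The groups did not overlap for either gene. Gene positions are those of the RefSeq annotation of TAIR10.1.

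ESM1 (AT3G14210, chr3:4729399-4731847), the epithiospecifier modifier that opposes nitrile formation, went the other way. It was counted at 316, 340 and 291 CPM in Col-0 and at 38.6, 41.3 and 48.8 CPM in Ler, 7.34-fold lower (−2.88 ± 0.14, adjusted p = 6.71e-13). TGG2 (AT5G25980, chr5:9072708-9075777), 1 of the 2 leaf myrosinases that start glucosinolate breakdown, was at 1288, 1131 and 844 CPM in Col-0 and at 5.76, 4.02 and 4.40 CPM in Ler, 240-fold lower (−7.91 ± 0.41, adjusted p = 2.23e-10). Its near neighbour and close relative TGG1 was at 2889, 2654 and 2736 CPM in Col-0 and at 2891, 2542 and 3341 CPM in Ler and was not called (0.08, adjusted p = 0.697). Reads that both TGG copies could have given are uncertain in either. Thus the nitrile-forming gene was high and the modifier and 1 myrosinase were low in the same 3 Ler libraries.

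Among the genes that build the side chain, MAM3 (AT5G23020, chr5:7718118-7721866), a methylthioalkylmalate synthase, was counted at 15.3, 19.7 and 14.6 CPM in Col-0 and at 98.9, 96.9 and 98.9 CPM in Ler (2.56 ± 0.16, adjusted p = 2.68e-11). Its tandem neighbour MAM1 (AT5G23010, chr5:7703041-7706973) was lower, at 252, 289 and 250 CPM in Col-0 and 156, 157 and 188 CPM in Ler (−0.66 ± 0.11, adjusted p = 9.97e-05), and reads shared by the tandem copies are uncertain. BCAT4, the aminotransferase of the first elongation step, rose from 145, 157 and 137 CPM to 264, 246 and 291 CPM (0.87 ± 0.13, adjusted p = 2.93e-05). The regulator MYB29 fell from 23.6, 22.8 and 21.4 CPM to 4.83, 4.09 and 4.55 CPM (−2.35 ± 0.26, adjusted p = 5.57e-07), while its partner MYB28 was higher (0.56, adjusted p = 0.0108). The core enzymes CYP79F1 and CYP79F2 had log2 fold changes of 0.00 and 0.06 and were not called. Of the 20 tested aliphatic glucosinolate and hydrolysis genes, 7 were called higher and 6 lower, beside 17.9% and 18.3% of all genes tested. Their median of 0.07 hides a range from −7.91 to 7.58. AOP2, the neighbour of AOP3, was not analysed here.

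**Figure D2:**
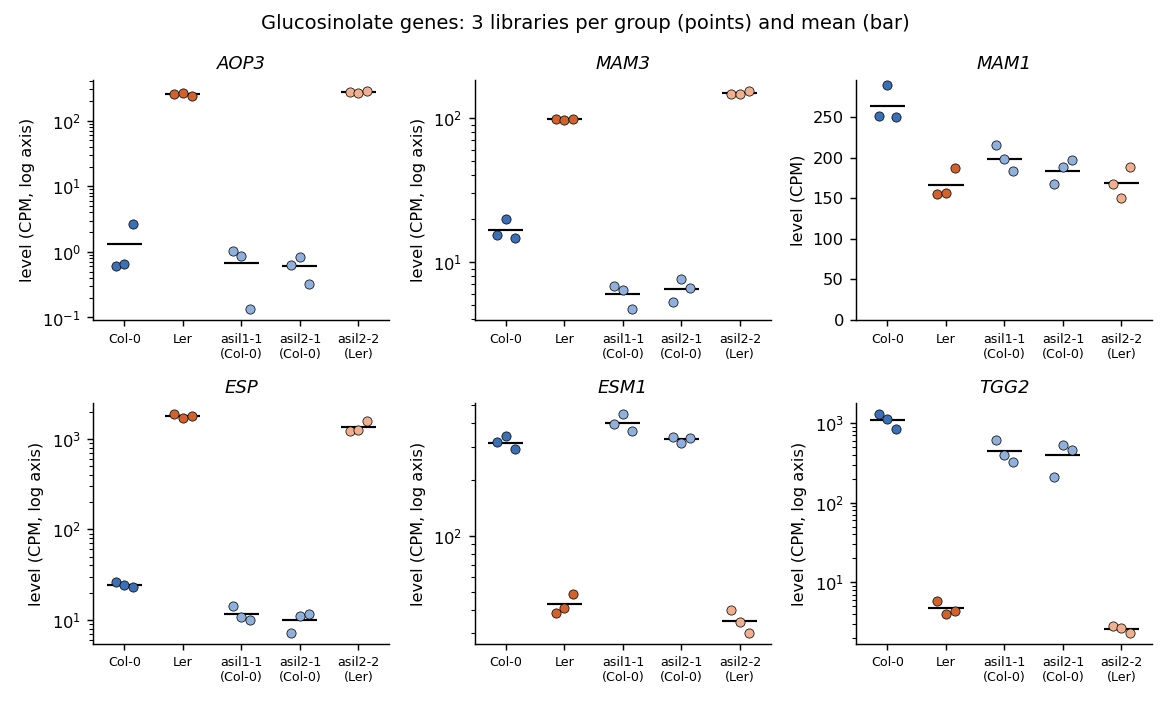
Levels in CPM (vertical axes, log axis where labelled so) of 6 glucosinolate genes in the 3 libraries of Col-0, Ler and the single mutants asil1-1 and asil2-1 (Col-0) and asil2-2 (Ler), with a bar at each mean. AOP3 and ESP are high in the Ler and asil2-2 libraries, ESM1 and TGG2 are low in them, and MAM1 differs by less than 2-fold.

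These genes were also compared in libraries of neither wild-type group. In these, asil2-2 in Ler was set against the mean of asil1-1 and asil2-1 in Col-0. This contrast and the wild-type contrast compare no library in common. But both come from the same fit, with the same tested genes, scaling and estimate of the spread. Allele and accession cannot be told apart in the single-mutant contrast alone. It called 37.7% of the genes tested, 17.5% higher in asil2-2 and 20.2% lower, and with at least 2-fold change 5.16% higher and 5.83% lower. There, AOP3 was higher by a log2 value of 8.63, ESP by 6.96 and MAM3 by 4.57, while ESM1 was lower with a log2 value of −3.38 and TGG2 of −7.35. MAM3 differed by more among the single mutants than among the wild types (wild-type minus single-mutant log2 fold change −2.01, adjusted p = 3.93e-06, a difference called for 16.6% of the genes tested), with means of 5.96 CPM in asil1-1, 6.45 CPM in asil2-1 and 150 CPM in asil2-2. Of the 20 tested aliphatic glucosinolate and hydrolysis genes, 10 were called with the same sign in both contrasts. The difference of the contrasts was called for 12 of the 20, beside 16.6% of all genes tested, and these included ESP (−0.78) and MAM1 (−0.48). ESP lies near ASIL1 on chromosome 1 and ESM1 near ASIL2 on chromosome 3.

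The indolic branch, which makes tryptophan-derived glucosinolates, showed a pair of opposite changes in methyltransferases that modify the indole ring. IGMT2 was counted at 6.38, 8.03 and 4.34 CPM in Col-0 and at 57.9, 64.5 and 65.5 CPM in Ler (3.32 ± 0.23, adjusted p = 6.53e-10). IGMT1 was at 44.9, 52.0 and 51.8 CPM in Col-0 and at 14.3, 14.8 and 14.6 CPM in Ler (−1.76 ± 0.24, adjusted p = 1.46e-05). These near-identical neighbours share reads, so the split between them is uncertain. CYP81F4, which hydroxylates the indole ring before methylation, fell from 18.17, 17.7 and 8.13 CPM to 4.67, 3.95 and 2.61 CPM (−2.0 ± 0.35, adjusted p = 0.000185). Of the 20 members tested, 4 were called higher and 6 lower (2 higher without Col-0 replicate 2 or Ler replicate 2), beside 17.9% and 18.3% of all genes tested. The median was −0.25, and it was 0 with Col-0 represented by replicate 3 alone. MYB51, a regulator of the branch, was not called (−0.25, adjusted p = 0.441).

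Of 20 tested genes on the NLR immune receptor list, 10 were called lower in Ler and 4 higher. Over all genes tested the shares were 18.3% and 17.9%. Beside NLR genes, the list holds HR1 to HR4, homologs of the mildew resistance gene RPW8, and its counts and median include those tested. Some of the lower genes had almost no counts in Ler. DAR4 (AT5G17890, chr5:5916862-5923494), an NLR gene with a LIM domain, was counted at 43.2, 44.6 and 44.4 CPM in Col-0 and at 0.467, 0.180 and 0.224 CPM in Ler, 182-fold lower (−7.51 ± 0.26, adjusted p = 3.92e-15). Its neighbour CSA1 (AT5G17880, chr5:5908834-5913317), an NLR gene first known from shade avoidance, was at 21.4, 19.7 and 21.9 CPM in Col-0 and at 0, 0.108 and 0.0746 CPM in Ler (−7.83 ± 0.31, adjusted p = 2.14e-14). The paired genes were therefore low together in every Ler library. HR4, a homolog of the mildew resistance gene RPW8, was at 32.7, 29.0 and 56.6 CPM and at 0.156, 0.180 and 0.522 CPM (−7.12 ± 0.67, adjusted p = 8.72e-07). These levels in Ler lie near the 3-count floors of the libraries, 0.108 to 0.467 CPM.

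Other NLR genes differed by smaller amounts. SNC1 was counted at 103, 104 and 91.9 CPM in Col-0 and at 35.2, 24.4 and 34.97 CPM in Ler (−1.67 ± 0.18, adjusted p = 3.69e-07), and RPP5, of the same tandem cluster and with uncertain shared reads, at 109, 103 and 96.1 CPM and at 64.2, 53.5 and 67.5 CPM (−0.74 ± 0.13, adjusted p = 0.000121). The downy mildew resistance genes RPP8 and RPP13 were lower too. RPP8 fell from 103, 99.6 and 96.7 CPM to 50.5, 37.6 and 45.3 CPM (−1.18 ± 0.12, adjusted p = 1.72e-07), and RPP13 from 76.4, 72.4 and 84.9 CPM to 49.7, 42.7 and 51.0 CPM (−0.71, adjusted p = 5.93e-05). The lower genes also included ADR1, RPP4 and WRR4A, and the 4 higher genes were ADR1-L2 (0.62), ZAR1 (0.64), RPS2 (0.55) and RFL1 (0.78), of which 2 were called without Col-0 replicate 3 or without Ler replicate 1. The median was −0.72 against 0.02 over all genes. RPM1, RPS4, RRS1 and RPP1 were not called, with log2 fold changes of 0.34, −0.05, −0.19 and −0.31. In the single-mutant contrast 14 of the 20 were called lower and 1 higher, and 11 were called with the same sign in both contrasts.

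Cysteine-rich receptor kinases, a family induced by pathogens and oxidative stress, included genes with large changes in both directions. CRK4 (AT3G45860) was counted at 14.1, 6.42 and 8.24 CPM in Col-0 and had no count in any Ler library, 261 counts against 0, at least 152-fold lower when 3 counts over the Ler group are taken as the floor. CRK40 fell from 50.9, 45.2 and 54.1 CPM to 10.7, 13.4 and 14.8 CPM (−1.92 ± 0.14, adjusted p = 3.7e-10). CRK41 rose from 11.2, 12.8 and 10.09 CPM to 41.6, 42.1 and 53.2 CPM (2.00 ± 0.17, adjusted p = 1.4e-08). The groups did not overlap for any of these kinases. CRK14 (−4.24) and CRK6 (−5.03) were also called lower and CRK13 (1.62) and CRK10 (0.49) higher, giving 3 higher and 4 lower of 21 tested, shares near the 17.9% and 18.3% over all genes. Tandem CRK copies share sequence, and their counts are uncertain to that extent.

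Salicylate genes, which act downstream of many of these receptors, included ACD6, an ankyrin membrane protein known for natural variation in cell death. ACD6 (AT4G14400) was counted at 198, 105 and 71.4 CPM in Col-0 and at 3.43, 2.44 and 2.83 CPM in Ler (−5.49 ± 0.76, adjusted p = 5.56e-05). The gap in the single mutants was smaller, −1.34 with adjusted p = 0.0527, and the difference of the contrasts was called (−4.15, adjusted p = 0.00571). DMR6, a salicylate hydroxylase, fell from 31.8, 30.4 and 26.1 CPM to 15.4, 11.5 and 9.32 CPM (−1.33 ± 0.30, adjusted p = 0.00262). SAG101, a partner of the immune hub EDS1, rose from 8.30, 11.5 and 11.1 CPM to 18.7, 18.5 and 21.8 CPM (0.93 ± 0.14, adjusted p = 3.32e-05), and ICS1, the main salicylate synthesis enzyme, also rose (0.83, adjusted p = 0.00496). In all, 3 of 26 tested members were called higher and 8 lower, beside 17.9% and 18.3% of all genes tested, with a median of −0.62. The lower calls were 4 without Ler replicate 2 or Ler replicate 3 and 5 without Col-0 replicate 1. The output gene PR1 was at 1.08, 0.567 and 0.217 CPM in Col-0 and at 0.467, 9.44 and 0.149 CPM in Ler, a spread among Ler libraries larger than any difference (adjusted p = 0.289). Col-0 replicates 1 and 2 carried higher root marker levels than replicate 3, and with Col-0 represented by replicate 3 alone 2 members were called higher and 1 lower, against 18.7% of all genes tested called in that fit, 8.15% higher and 10.5% lower. A lone library is taken there to vary like the other groups.

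ERECTA itself, whose protein product is affected in Ler, was counted at 79.8, 85.0 and 60.5 CPM in Col-0 and at 88.4, 91.5 and 95.9 CPM in Ler and was not called (0.29 ± 0.14, adjusted p = 0.101). Of the other 20 tested genes of the pathway that sets stomatal number, 9 were called higher in Ler, 1 lower and 10 not at all. Over all genes tested 17.9% were called higher and 18.3% lower. Among receptors, ERL1, a paralog of ERECTA, rose from 2.89, 2.83 and 2.17 CPM to 8.10, 7.07 and 8.50 CPM (1.57 ± 0.32, adjusted p = 0.000528). TMM, the receptor-like protein that works with the ERECTA family, rose from 12.99, 11.5 and 7.59 CPM to 19.5, 28.3 and 30.3 CPM (1.30 ± 0.21, adjusted p = 7.13e-05). The groups did not overlap for either receptor gene.

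Of the transcription factors of the stomatal lineage, SCRM2, ICE1, FAMA and SPCH were called higher and MUTE was not called. SCRM2 was counted at 39.4, 36.3 and 34.6 CPM in Col-0 and at 73.0, 83.3 and 91.9 CPM in Ler (1.18 ± 0.11, adjusted p = 2.99e-08), and its partner ICE1 at 52.7, 44.7 and 53.6 CPM and at 74.9, 93.3 and 94.2 CPM (0.80 ± 0.10, adjusted p = 3.83e-06). FAMA, which acts at the last division, rose from 22.1, 19.5 and 22.7 CPM to 34.6, 32.9 and 41.1 CPM (0.76 ± 0.10, adjusted p = 5.01e-06), and SPCH, which starts the lineage, rose by 0.93 (adjusted p = 0.00591). The lower gene was the peptide gene EPFL5 (−1.23), and the median over the 21 tested members was 0.54. Also not called were BASL (0.89), MPK3 (0.44), YDA (0.28) and the peptide gene EPF1 (−0.06), and MUTE had a log2 fold change of 0.60. In the single-mutant contrast 12 were higher and 2 lower with a median of 0.71, and 8 were called with the same sign in both contrasts. With Col-0 represented by replicate 3 alone, 9 members were again higher and 0 lower.

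In flowering time, SOC1, an integrator that promotes flowering, rose from 62.7, 52.7 and 60.2 CPM to 127, 130 and 134 CPM (1.16 ± 0.10, adjusted p = 1.74e-08). FT, the mobile flowering signal, was at 2.53, 2.65 and 1.84 CPM in Col-0 and at 5.29, 3.73 and 4.70 CPM in Ler (0.93 ± 0.35, adjusted p = 0.04). The floral repressor FLC was low in all libraries, at 2.05, 2.27 and 5.96 CPM in Col-0 and at 0.623, 0.826 and 0.746 CPM in Ler (−2.16 ± 0.42, adjusted p = 0.000425). FRI, the activator of FLC that is inactive in both accessions, fell from 7.10, 7.37 and 7.05 CPM to 1.25, 1.76 and 3.58 CPM (−1.67 ± 0.26, adjusted p = 4.19e-05). The repressor MAF1 was lower, at 19.0, 21.4 and 19.8 CPM against 11.5, 12.5 and 13.1 CPM (−0.69, adjusted p = 0.000303). Thus promoters of flowering were higher and repressors lower in these named genes. But the list of 26 tested members held equal numbers, 5 higher and 5 lower, shares near the 17.9% and 18.3% over all genes, with a median of 0.04. SPL4, a promoter of flowering, was lower (−1.97 ± 0.42, adjusted p = 0.000915). The FLC gap was not present in the single mutants (−0.10), whose means were 2.72, 2.85 and 2.62 CPM in asil1-1, asil2-1 and asil2-2, and the difference was called (−2.06, adjusted p = 0.0102). HUA2 and the molybdate transporter gene MOT1, loci of known variation between accessions, were not called (0.36 and 0.35, adjusted p = 0.147 and 0.226). Over all 13 tested loci of that kind, which include the glucosinolate and RPP genes above, 3 were called higher and 7 lower, beside the same shares over all genes.

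Floral organ and meristem markers were present at low levels in both accessions. The sum over 8 floral organ markers was 11.7, 11.5 and 17.0 CPM in Col-0 and 25.1, 34.0 and 30.0 CPM in Ler, and 2 of 8 were called, SEP3 and AG. SEP3 rose from 1.32, 2.83 and 3.47 CPM to 9.65, 14.3 and 16.8 CPM (2.42 ± 0.30, adjusted p = 2.09e-06). AG was under 1.3 CPM in every wild-type library and its groups overlapped, and the count was 1 without Col-0 replicate 3, Ler replicate 2 or Ler replicate 3. The sum over 8 shoot meristem markers was 92.8, 94.5 and 92.1 CPM in Col-0 and 114, 114 and 142 CPM in Ler, with only CLV1 called among 6 tested (0.46, adjusted p = 0.0009).

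Jasmonate genes act in wounding and insect defence, and 13 of the 25 tested were called higher in Ler, beside 17.9% of all genes tested. Among synthesis enzymes, LOX2 rose from 372, 455 and 376 CPM to 1511, 1320 and 1015 CPM (1.68 ± 0.23, adjusted p = 1.97e-05), and AOS from 143, 134 and 162 CPM to 287, 282 and 288 CPM (0.96 ± 0.16, adjusted p = 5.68e-05). AOC1, AOC2 and LOX4 rose by 1.29, 1.00 and 1.25 on the log2 scale, while OPR3 was not called (0.18). The regulator MYC2 rose from 43.1, 43.6 and 69.5 CPM to 129, 117 and 148 CPM (1.33 ± 0.19, adjusted p = 2.76e-05). Of the JAZ repressor genes, JAZ1, JAZ2, JAZ5, JAZ6, JAZ9 and JAZ10 were called higher, by 0.51 to 1.25. Among outputs, CORI3 rose from 48.4, 56.0 and 57.6 CPM to 260, 223 and 192 CPM (2.06 ± 0.24, adjusted p = 4.16e-06), whereas the vegetative storage protein gene VSP2 fell from 107, 125 and 83.1 CPM to 27.4, 17.7 and 8.50 CPM (−2.61 ± 0.44, adjusted p = 0.000298). The members called lower were VSP2 and the methyltransferase gene JMT (−2.63), and the list's median was 0.85. In the single-mutant contrast 12 were higher and 1 lower (median 0.64), but MYC2 was not among them (−0.15), and its difference was called (1.48). With Col-0 represented by replicate 3 alone, 5 members were called higher and 1 lower, with a median of 0.82, and without Col-0 replicate 1 the higher calls were 8.

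Most called clock genes split by the time of day at which they are known to peak. The circadian clock is a loop in which the morning factors CCA1 and LHY repress evening genes such as TOC1 through the evening element, and TOC1 and the PRR proteins repress the morning genes in turn. The sources give no hour of harvest for any library, so a difference in level and a difference in phase cannot be told apart. The promoters of 2 morning genes are shown beside those of 4 evening or day genes, chosen because they hold an evening element. Each is the 300 bases upstream of the annotated gene start in TAIR10.1 on the coding strand. Each evening element (AAAATATCT on either strand) is in capitals. These promoters were not picked by direction of change, and the display does not link the element to it. They lie at chr2:19245291-19245590 on the plus strand (CCA1), chr1:37872-38171 on the minus strand (LHY), chr5:24674663-24674962 on the plus strand (TOC1), chr5:8358547-8358846 on the minus strand (PRR5), chr3:17182742-17183041 on the plus strand (LUX) and chr5:24003588-24003887 on the plus strand (BOA).
CCA1: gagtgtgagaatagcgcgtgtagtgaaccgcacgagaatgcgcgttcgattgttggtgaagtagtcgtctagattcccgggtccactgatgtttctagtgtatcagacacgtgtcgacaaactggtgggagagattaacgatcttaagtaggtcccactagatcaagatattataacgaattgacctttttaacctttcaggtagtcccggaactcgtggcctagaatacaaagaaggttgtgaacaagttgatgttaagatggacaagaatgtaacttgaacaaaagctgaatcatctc
LHY: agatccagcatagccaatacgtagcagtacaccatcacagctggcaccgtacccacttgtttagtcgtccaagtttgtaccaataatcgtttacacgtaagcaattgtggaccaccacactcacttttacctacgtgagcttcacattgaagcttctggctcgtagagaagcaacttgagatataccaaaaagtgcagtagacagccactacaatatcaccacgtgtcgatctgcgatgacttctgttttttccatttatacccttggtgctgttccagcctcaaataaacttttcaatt
TOC1: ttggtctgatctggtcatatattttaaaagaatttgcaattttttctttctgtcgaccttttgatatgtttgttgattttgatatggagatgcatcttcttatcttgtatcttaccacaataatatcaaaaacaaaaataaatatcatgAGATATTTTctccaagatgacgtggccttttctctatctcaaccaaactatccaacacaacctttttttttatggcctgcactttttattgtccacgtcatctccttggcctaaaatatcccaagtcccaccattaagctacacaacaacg
PRR5: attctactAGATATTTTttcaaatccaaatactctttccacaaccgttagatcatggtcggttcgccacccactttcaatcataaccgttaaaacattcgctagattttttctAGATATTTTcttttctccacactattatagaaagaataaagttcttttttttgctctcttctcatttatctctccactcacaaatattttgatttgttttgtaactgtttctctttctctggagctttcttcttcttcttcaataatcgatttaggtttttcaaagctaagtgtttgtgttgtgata
LUX: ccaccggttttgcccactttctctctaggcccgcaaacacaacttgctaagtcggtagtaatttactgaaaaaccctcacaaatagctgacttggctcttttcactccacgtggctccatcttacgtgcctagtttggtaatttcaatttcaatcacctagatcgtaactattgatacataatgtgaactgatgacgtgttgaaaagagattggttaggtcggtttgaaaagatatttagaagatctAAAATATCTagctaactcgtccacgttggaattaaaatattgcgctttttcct
BOA: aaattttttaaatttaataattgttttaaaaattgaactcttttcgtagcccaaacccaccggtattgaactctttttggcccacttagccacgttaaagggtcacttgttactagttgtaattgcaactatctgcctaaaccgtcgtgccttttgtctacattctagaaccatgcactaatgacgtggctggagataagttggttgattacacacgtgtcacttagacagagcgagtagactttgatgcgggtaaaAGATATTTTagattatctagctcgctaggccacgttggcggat

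An evening element was found in 4 of the 18 clock promoters (22.2%), those of TOC1, PRR5, LUX and BOA, with 2 copies in PRR5, against 581 of 19480 promoters of tested genes (2.98%). PRR3, PRR7, ELF3, ELF4 and GI, also day or evening genes, had none. The share with an evening element was 3.38% among promoters of genes called higher in Ler and 2.89% among those called lower. The G-box CACGTG, which reads the same on both strands, was found in 7 of 18 clock promoters (38.9%) and in 1531 of all (7.86%). A match describes these letters in the Col-0 reference and not binding, and the Ler letters were not read.

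The morning genes were lower in Ler. CCA1 was counted at 146, 140 and 148 CPM in Col-0 and at 66.2, 40.5 and 38.1 CPM in Ler (−1.60 ± 0.19, adjusted p = 2.24e-06), and LHY at 192, 175 and 150 CPM and at 86.0, 48.4 and 49.4 CPM (−1.51 ± 0.24, adjusted p = 7.57e-05). LNK2, a coactivator of the RVE factors, fell from 463, 423 and 429 CPM to 246, 190 and 190 CPM (−1.08 ± 0.18, adjusted p = 0.000132). PRR9, the earliest of the PRR genes to peak, fell from 12.5, 9.07 and 7.48 CPM to 6.38, 3.81 and 3.21 CPM (−1.19 ± 0.35, adjusted p = 0.0111). No library of 1 accession reached the range of the other for these genes.

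The 4 genes with an evening element and several other day and evening genes were higher. TOC1 rose from 71.1, 71.2 and 87.6 CPM to 154, 142 and 179 CPM (1.05 ± 0.13, adjusted p = 2.65e-06), and PRR5 from 37.1, 37.2 and 49.1 CPM to 65.6, 60.3 and 65.9 CPM (0.63 ± 0.15, adjusted p = 0.00242). BOA, a factor related to LUX, rose from 4.45, 7.75 and 9.54 CPM to 14.6, 15.6 and 16.3 CPM (1.09 ± 0.20, adjusted p = 0.000196). LUX, part of the evening complex, was at 27.2, 31.9 and 46.4 CPM in Col-0 and at 40.0, 49.6 and 60.3 CPM in Ler, and its groups overlapped although it was called (0.51 ± 0.19, adjusted p = 0.0368). PRR3, with no evening element in its 300 bases, showed the smallest p of the list, at 19.6, 18.9 and 21.9 CPM and at 74.4, 72.0 and 76.0 CPM (1.88 ± 0.12, adjusted p = 1.03e-10). GI rose from 59.4, 60.1 and 55.7 CPM to 99.2, 79.8 and 117 CPM (0.75 ± 0.16, adjusted p = 0.00104).

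In all, 8 of 18 clock genes were called higher, including ELF3 (0.66) and PRR7 (0.61), and 6 lower, including the morning factor RVE8 (−0.79). Over all genes tested 17.9% were called higher and 18.3% lower. ELF4 went against the split, as an evening gene that was lower (−0.56). RVE4, LNK1, ZTL and RVE1 were not called. In the single mutants the pattern was different. The differences of the contrasts were called for CCA1 (−1.27), LHY (−1.11), TOC1 (1.18) and PRR3 (0.89), TOC1 was at −0.14 in the single-mutant contrast, and 2 clock genes were higher and 6 lower there. PRR3 (0.99) and BOA (0.67) were higher in asil2-2 as well.

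**Figure D3:**
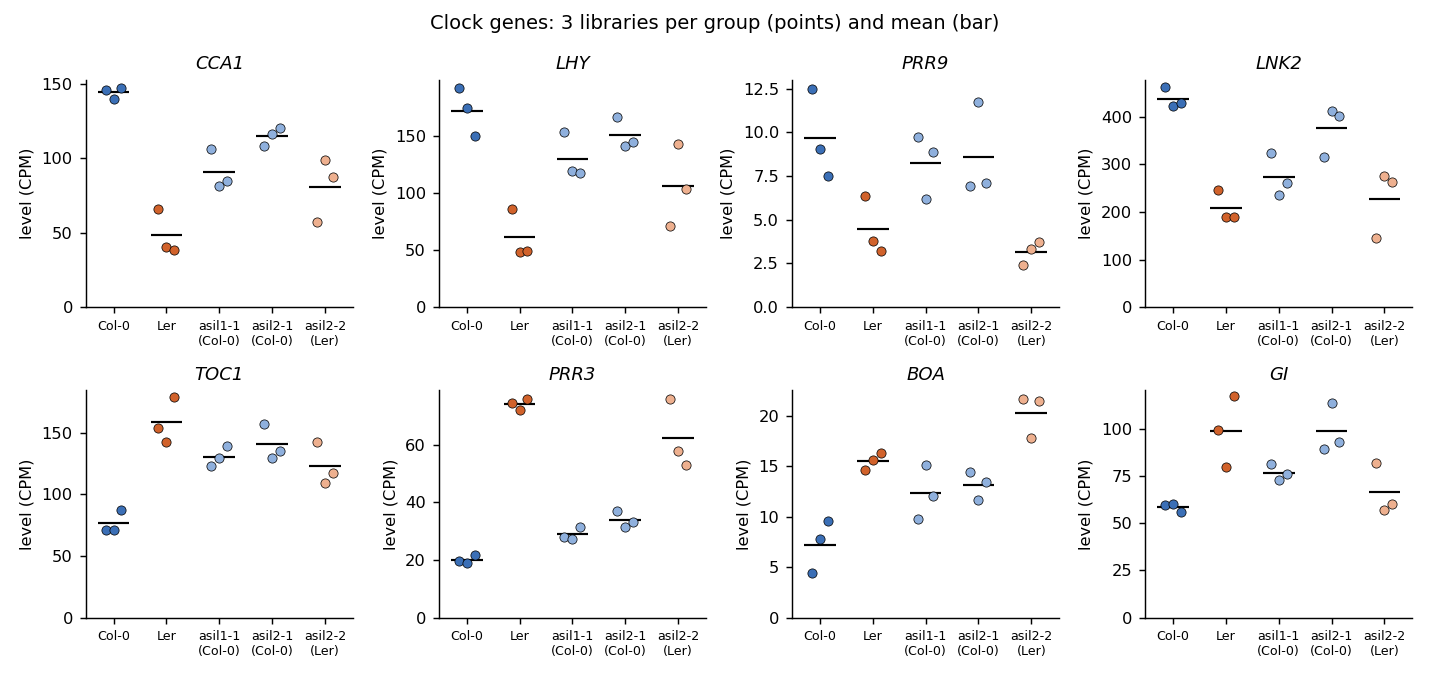
Levels in CPM (vertical axes from 0) of 8 clock genes in the 3 libraries of each wild type and single mutant, with a bar at each mean. CCA1, LHY, PRR9 and LNK2 lie lower and TOC1, PRR3, BOA and GI higher in Ler than in Col-0; in the single mutants PRR3 and BOA still separate by accession, while TOC1 lies between 109 and 157 CPM in all of them.

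Flavonoid genes make sunscreen pigments and anthocyanins, and 12 of the 19 tested were called lower in Ler, beside 18.3% of all genes tested. CHS, the entry enzyme, was counted at 213, 167 and 122 CPM in Col-0 and at 73.7, 43.8 and 23.1 CPM in Ler (−1.87 ± 0.44, adjusted p = 0.00416). CHIL, a non-catalytic helper of that step, fell from 24.9, 24.5 and 18.22 CPM to 7.01, 6.79 and 3.80 CPM (−1.95 ± 0.27, adjusted p = 1.18e-05), and 4CL3 from 11.3, 12.7 and 13.01 CPM to 3.89, 3.38 and 1.72 CPM (−2.07 ± 0.24, adjusted p = 6.63e-07). The flavonol glycosyltransferase gene UGT78D1 fell less, from 49.6, 46.2 and 41.6 CPM to 29.1, 30.3 and 27.7 CPM (−0.66 ± 0.11, adjusted p = 0.000112). Every Col-0 library was above every Ler library for these genes. Late anthocyanin genes DFR (−2.46), UF3GT (−3.70) and 5MAT (−3.25) and the flavonol regulator MYB12 (−2.42) were also called lower, 0 members were called higher, and the median was −1.43. FLS1 (−1.17, adjusted p = 0.0688) and the regulator MYB111 (0.00) were not called.

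The flavonoid difference did not follow the accession in the single mutants, where 8 members were higher in asil2-2 and 1 lower (median 0.61) and 0 were called with the same sign in both contrasts. DFR, for example, was higher there by 2.35, CHS by 1.25 and UGT78D1 by 0.61. The difference of the contrasts was called for 15 members. Root markers moved with this list only in part. Ler replicate 1 was above Col-0 replicate 3 in root markers and below it in the list. The mean centred log2 level of its tested members was 1.19, 1.27 and 0.77 in Col-0 and 0.11, −0.26 and −0.73 in Ler, beside root marker values of 1.35, 1.45 and 0.07 and of 0.93, 0.17 and −0.28. With the root marker value as a covariate, under which 35.1% of all genes were called and 17.9% were lower, 13 members were lower and the median was −1.04, and with Col-0 represented by replicate 3 alone 7 were lower and the median was −1.08.

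Of the 44 tested nuclear photosynthesis genes, 22 were called lower in Ler, 4 higher and 18 not at all, with a median of −0.39. Over all genes tested 18.3% were called lower and 17.9% higher. PETE2, the main plastocyanin gene, was counted at 3428, 3068 and 3854 CPM in Col-0 and at 1048, 1328 and 1158 CPM in Ler (−1.55 ± 0.15, adjusted p = 8.89e-08). PSBR, a photosystem II subunit, fell from 6578, 6658 and 9527 CPM to 2162, 2664 and 2643 CPM (−1.61 ± 0.20, adjusted p = 2.82e-06), and PSAH2, of photosystem I, from 922, 855 and 973 CPM to 327, 355 and 379 CPM (−1.37 ± 0.17, adjusted p = 1.82e-06). These are small proteins with short transcripts. Antenna genes LHCB3 (−1.48), LHCB2.1 (−1.35), LHCB4.2 (−1.24) and LHCA1 (−0.88) were lower, with reads shared among LHCB copies uncertain. PSBQ-1 (0.45), the ATP synthase gene ATPC1 (0.35) and the carbon fixation genes PRK (0.38) and GAPA (0.50) were higher, and the Rubisco genes RBCS1A (−0.25) and RCA (0.14) were not called.

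Transcript length moved with the photosynthesis list. With the trend of level on exon length removed from each library, which left 34.4% of genes called, 16.5% higher and 17.9% lower, 19 members were lower and 7 higher and the median was −0.17. Under the same setting 14 flavonoid members were lower with a median of −1.43. In the single mutants 4 photosynthesis genes were lower and 7 higher (median 0.07), the length correlation was rho 0.0869, and the difference of the contrasts was called for 13. PETE2 varied there within 1 accession, with means of 2980 CPM in asil1-1 and 814 CPM in asil2-1, both Col-0, and 1400 CPM in asil2-2.

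**Figure D4:**
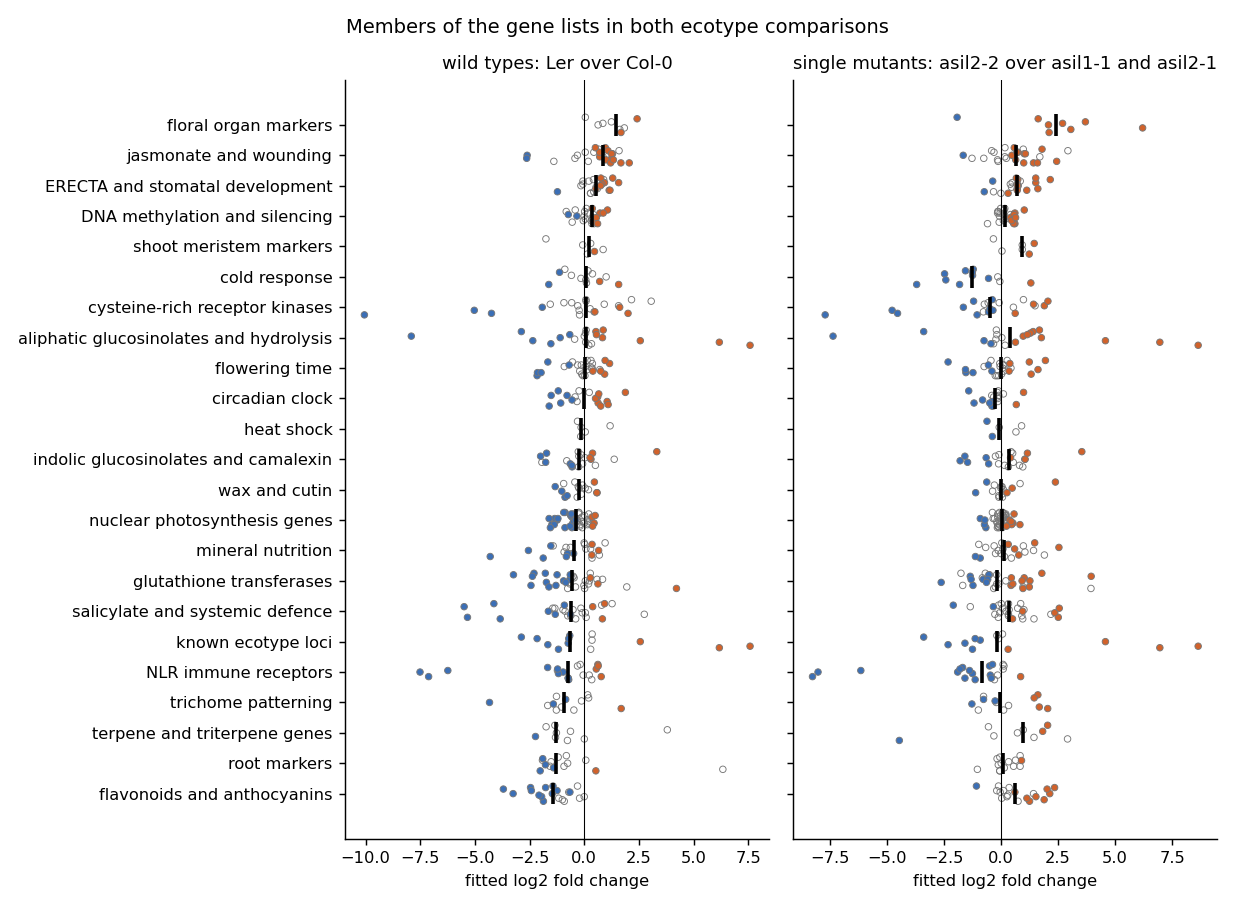
Fitted log2 fold change (horizontal axes) of each tested member of the gene lists (rows), Ler minus Col-0 in the left panel and asil2-2 minus the mean of asil1-1 and asil2-1 in the right panel. Orange points were called higher, blue points called lower and open points not called, and the bar marks the list's median; the flavonoid median is −1.43 on the left and 0.61 on the right, the jasmonate median 0.85 and 0.64.

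Root markers were summed in each library. The 18 markers in the files summed to 145, 165 and 88.1 CPM in Col-0 and to 131, 107 and 104 CPM in Ler, with 15 to 18 of them detected. SCR, which patterns the root ground tissue and also acts in leaves, was higher in Ler, at 44.6, 45.8 and 44.9 CPM in Col-0 and 65.7, 61.4 and 68.6 CPM in Ler (0.53 ± 0.11, adjusted p = 0.000507). It alone gave 44.9 of the 88.1 CPM in Col-0 replicate 3 and 68.6 of the 104 CPM in Ler replicate 3. The sums therefore do not measure the share of root in a sample. MYB36 (−1.90), CASP2 (−1.40), the auxin carrier PIN2 (−1.77) and the root hair expansin EXPA7 (−2.02) were called lower, and the median of the 14 tested was −1.30. Those 4 lower calls were 2 without Col-0 replicate 1 and 1 without Col-0 replicate 2, Ler replicate 2 or Ler replicate 3. With Col-0 represented by replicate 3 alone, 1 was higher, 0 were lower and the median was −0.02.

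Mineral nutrition genes include many that act in roots. With the root marker value as a covariate, 4 of 21 tested members were higher and 3 lower, with a median of −0.32. The phosphate transporter gene PHT1;1 was counted at 14.0, 13.9 and 5.75 CPM in Col-0 and at 0.934, 0.503 and 0.447 CPM in Ler (−4.30 ± 0.52, adjusted p = 2.39e-06), and PHT1;4 (−1.53) and the iron regulator gene FIT (−1.88) were lower too. APR3, of sulphate reduction, rose by 0.66 (adjusted p = 0.00465). Over all genes tested 17.9% were called higher and 18.3% lower. In the main fit the list had 3 members higher and 7 lower of 21 tested, with a median of −0.48. These counts were 3 and 2 without Ler replicate 3, 3 and 3 without Col-0 replicate 2, 2 and 4 without Col-0 replicate 1 or Ler replicate 2, 1 and 7 without Col-0 replicate 3, 1 and 6 without Ler replicate 1, and 1 and 1 with a median of −0.14 with Col-0 represented by replicate 3 alone.

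Glutathione transferases, which detoxify reactive compounds, showed 13 of 31 members lower and 3 higher, beside 18.3% and 17.9% of all genes tested, with a median of −0.57. GSTU9 fell from 4.93, 5.10 and 3.04 CPM to 0.467, 0.503 and 0.373 CPM (−3.24 ± 0.50, adjusted p = 3.38e-05). GSTF8 (−0.66) and GSTF10 (−0.64), expressed at 315 to 371 CPM in Col-0, were lower in both contrasts. GSTU19 rose from 382, 364 and 442 CPM to 548, 771 and 511 CPM (0.62 ± 0.14, adjusted p = 0.00189). GSTU18 (0.28) and GSTU3 (4.22) were the others called higher, GSTU3 from low counts with overlapping groups. With Col-0 represented by replicate 3 alone 1 member was higher and 3 were lower, with a median of −0.10. With the length trend removed 8 were higher and 10 lower. Without Ler replicate 3 the counts were 5 and 8, and without Col-0 replicate 2 they were 1 and 8.

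Smaller groups held single genes that stood apart. In trichome patterning, ETC2, a repressor of leaf hairs known for natural variation, was counted at 2.53, 1.51 and 2.71 CPM in Col-0 and at 0.156, 0.144 and 0 CPM in Ler (−4.33 ± 0.63, adjusted p = 1.81e-05). Its relative ETC3 was higher (1.69) and the activators MYB23 (−1.41) and GL2 (−0.85) were lower. Of 12 tested, 1 was higher and 3 lower, beside 17.9% and 18.3% of all genes tested. In DNA methylation and silencing, 7 of 24 tested members were higher and 2 lower (median 0.33), beside the same shares over all genes. But 3 were higher and 4 lower without Col-0 replicate 3, and 4 and 3 with the length trend removed (median 0.14). NRPE1, the large subunit of RNA polymerase V, rose from 13.8, 17.7 and 11.4 CPM to 37.2, 24.0 and 30.3 CPM (1.06 ± 0.21, adjusted p = 0.000653), and the demethylase gene ROS1 from 50.2, 47.5 and 39.3 CPM to 95.3, 69.2 and 86.5 CPM (0.87 ± 0.18, adjusted p = 0.00084). NRPE1 was also higher in asil2-2 (1.02), and ROS1 was not (−0.15).

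In wax and cutin synthesis 3 of 16 tested were higher and 4 lower, beside 17.9% and 18.3% of all genes tested. The counts were 1 and 1 without Ler replicate 3, 1 and 2 without Col-0 replicate 1, and 2 and 2 without Col-0 replicate 2. CER3, of wax alkane formation, rose from 102, 99.7 and 113 CPM to 160, 147 and 166 CPM (0.59 ± 0.09, adjusted p = 3.27e-05), and its partner CER1 was lower (−0.88, adjusted p = 0.0421). In the cold response, COR47 rose from 261, 286 and 326 CPM to 403, 496 and 523 CPM (0.71 ± 0.12, adjusted p = 9.96e-05) and the genes LTI30 (−1.62) and KIN2 (−1.13) were lower. Of 12 tested, 2 were higher and 2 lower, shares near the 17.9% and 18.3% over all genes. Leaving out any 1 library except Ler replicate 1 moved at least 1 of these counts by 1. Among 9 tested terpene genes only TPS12 was called (−2.26, adjusted p = 0.00437). Of the 5 heat shock genes tested, 0 were called, and their median was −0.15.

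Beyond the lists, the genes with the smallest p or largest fold were often near absence in 1 accession. DES1, a cysteine desulfhydrase gene, was counted at 3.85, 1.80 and 3.25 CPM in Col-0 and at 112, 112 and 118 CPM in Ler (5.29 ± 0.23, adjusted p = 4.18e-13). HDG8, a homeodomain gene, had no count in Col-0 and 113 counts in Ler, at least 20.5-fold higher with 3 counts over the Col-0 group as the floor. HSD2, a steroid dehydrogenase gene, went the other way, from 20.6, 18.7 and 18.9 CPM to 0.156, 0.0718 and 0.224 CPM (−7.15 ± 0.29, adjusted p = 3.03e-14). LUL1, a ubiquitin ligase gene, fell from 12.2, 12.8 and 14.5 CPM to 0.311, 0.0718 and 0.0746 CPM (−6.84 ± 0.36, adjusted p = 2.57e-12).

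Genes expressed in both accessions could be as clear. SGS3, which acts in small RNA silencing, rose from 18.3, 21.8 and 19.4 CPM to 62.1, 66.0 and 68.7 CPM (1.72 ± 0.10, adjusted p = 2.4e-11). FOLT1, a folate transporter gene, rose from 6.98, 10.11 and 9.001 CPM to 38.8, 39.1 and 48.7 CPM (2.27 ± 0.13, adjusted p = 1.56e-11), and G6PD4 from 11.8, 9.82 and 16.2 CPM to 78.8, 77.0 and 85.3 CPM (2.68 ± 0.16, adjusted p = 2.16e-11). PLDGAMMA2, a phospholipase gene, fell from 56.6, 54.8 and 45.8 CPM to 8.72, 7.25 and 7.31 CPM (−2.78 ± 0.13, adjusted p = 1.84e-13). In each of these the 3 libraries of an accession lay close together and far from the other accession.

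No count in any Ler library was found for 19 genes that had at least 1 CPM in every Col-0 library, and 13 of them had none in asil2-2 either. In the other direction 17 genes had at least 1 CPM in every Ler library and no count in Col-0, and 5 of those had none in asil1-1 and asil2-1. A count of 0 limits a level only to the 3-count floor, 0.108 to 0.467 CPM per library.

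Called genes lay on all chromosomes. Between 35.5% and 36.9% of tested genes were called on each of the 5 chromosomes, and between 11.5% and 13.2% were called with at least 2-fold change. Of 2367 such genes on the chromosomes, 538 lay in 238 runs of at least 2 adjacent tested genes with 1 direction. How many such runs would arise with these genes placed at random was not tested. The longest run, of 6 genes, lay on chromosome 1 (chr1:10301377-10309896, AT1G29420 to AT1G29465) and holds 5 genes annotated as SAUR-like auxin-response genes and 1 uncharacterized gene. SAUR63 in it fell from 9.39, 8.88 and 10.3 CPM to 2.18, 2.73 and 3.36 CPM (−1.76), and the others fell by 1.23 to 2.58 on the log2 scale. In the single mutants only AT1G29460 of the 6 was called, and there it was higher (0.68, adjusted p = 0.0433). Reads of these related genes are uncertain.

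The next runs held 5 genes each. On chromosome 2 (chr2:6036804-6175095) AT2G14255 fell from 37.9, 31.6 and 34.8 CPM to 9.03, 7.68 and 8.05 CPM (−2.09), and AT2G14285 had 339 counts in Col-0 and 0 in Ler, at least 194-fold lower with 3 counts over the group as the floor. AT2G14285 had no count in asil2-2 either. On chromosome 4 (chr4:8788659-8813593) a run of acyltransferase and cytochrome P450 genes was lower, with AT4G15390 at 48.4, 49.0 and 11.4 CPM in Col-0 and at 3.89, 0.790 and 1.04 CPM in Ler (−4.65). None of the run was called in the single mutants, and Col-0 replicate 3, which was also the lowest of the Col-0 libraries in root markers, was the lowest for all of its genes except BIA1.

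A run of 5 on chromosome 5 (chr5:18963977-18980183) was higher. AT5G46730, annotated as a glycine-rich protein gene, was counted at 129, 141 and 138 CPM in Col-0 and at 1056, 1583 and 1398 CPM in Ler (3.30), and it was higher in asil2-2 too (1.70). Its neighbour MYC3, a relative of MYC2, rose from 65.9, 62.2 and 70.2 CPM to 143, 152 and 160 CPM (1.2 ± 0.10, adjusted p = 5.27e-09) but had means of 78.1, 74.8 and 67.2 CPM in asil1-1, asil2-1 and asil2-2 (difference 1.38, adjusted p = 1.64e-06). On chromosome 1, 4 neighbouring genes, 3 annotated as leucine-rich repeat protein kinases and 1 as kinase-like, were lower, with log2 values from −1.16 to −3.12 (chr1:19249401-19278798). It was 1 of 6 runs of 4 genes and was taken as the first by position.

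Across all genes, the single-mutant contrast called 7377 of the 19589 genes tested (37.7%), 3429 higher in asil2-2 and 3948 lower. Both contrasts called 3231 genes with the same sign, 45.7% of the wild-type calls and 43.8% of the single-mutant calls, and 367 with opposite signs. The share depended on size. Of the 893 wild-type calls of at least 4-fold, 528 (59.1%) were called with the same sign among the single mutants, against 1262 of 2383 (53.0%) at 2-fold or more and 1969 of 4694 (41.9%) below 2-fold. The contrasts compare different libraries in the same fit. Their log2 fold changes correlated across the 19589 genes at Pearson's r 0.663 and Spearman's rho 0.404. Among wild-type calls r was 0.794. Genes are not independent replicates.

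The difference of the contrasts was called for 3245 genes (16.6%), 1739 (8.88%) with the higher value in the wild types and 1506 (7.69%) with the lower. With a difference of at least 2-fold these were 2.59% and 4.53%. Of the 7077 wild-type calls, 2006 had a called difference. The genes with the smallest p included some whose Col-0 single mutants lay apart from each other. CYP707A3, an abscisic acid hydroxylase gene, was counted at 2.77, 2.55 and 3.36 CPM in Col-0 and at 10.4, 11.1 and 17.4 CPM in Ler, with means of 1.28, 57.0 and 1.40 CPM in asil1-1, asil2-1 and asil2-2 (difference 4.77, adjusted p = 9.36e-07). CZF1, WRKY11 and PUB22, stress-response genes, were likewise high in asil2-1 alone, at 512, 101 and 29.2 CPM against 54.3, 20.4 and 6.19 CPM in asil1-1. By contrast 2A6, an oxygenase-family gene, fell in Ler from 33.3, 35.5 and 40.1 CPM to 14.6, 13.3 and 15.6 CPM (−1.33) and had nearly level means of 35.2, 31.3 and 38.0 CPM in the 3 single mutants (difference −1.52).

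**Figure D5:**
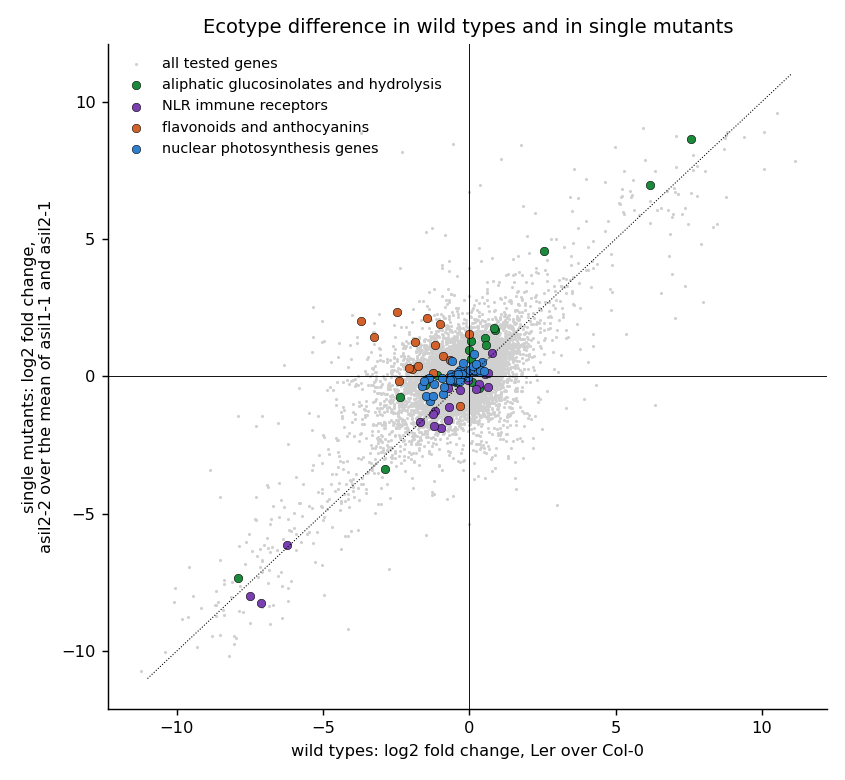
Log2 fold change of each tested gene between the wild types (Ler minus Col-0, horizontal axis) and between the single mutants (asil2-2 minus the mean of asil1-1 and asil2-1, vertical axis), with members of 4 lists in colour and equal values on the dotted line. Pearson's r across 19589 genes is 0.663; the glucosinolate and NLR members far from the centre lie near the line, and most flavonoid members lie above it.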

How the data were processed

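The authors deposited 1 table per library of whole-number counts of reads per gene model, with no normalization, and the model suffix was removed to give 24100 loci. TAIR10 is the genome build named in the submitters' processing notes, which list the programs edgeR 3.0.8 and Bowtie 0.12.7 with no role. The sources used here do not say how reads were counted or what was done with strand and multiple matches. Names, positions and exon lengths came from the RefSeq table and annotation of TAIR10.1, which held 23867 of the 24100 loci.

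Counts of all 21 libraries were fitted in R 4.3.3 with edgeR 4.0.16 (TMM scaling, filterByExpr by group, robust quasi-likelihood), with 1 mean for each of 7 groups and 14 residual degrees of freedom. The filter kept 19589 loci and removed 4511. The submitters state that the 3 replicates of a genotype are biological. Sharing 1 spread over groups, p-values cover the spread between these libraries. The contrasts were Ler minus Col-0, asil2-2 minus the mean of asil1-1 and asil2-1, and their difference. CPM used TMM-scaled library totals, and standard errors were taken from the fold change and its F value. Loci with no count in a group were given bounds at a floor of 3 counts over the group, which covers counting error only. The totals of 6522764 to 28794135 counts in a wild-type library set the precision, which is least for genes of a few CPM.

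The members, the 20 gene lists and the 4 marker lists were chosen with earlier results of these data known, and the lower flavonoid and photosynthesis lists had been seen in them, so these give no independent support. Genes were named by rule: the known accession loci, the 8 genes of largest fold and the 8 of smallest p in each direction with separate groups and a symbol, up to 5 members of each list by p, the 5 longest runs, and the 5 genes of smallest p in each direction for the difference, 167 in all. Other members named in the text were chosen after their values were seen. Some genes that the rule names are not reported here. Counts were also simulated for 19305 genes, with the changed genes drawn from those with a mean above 1 CPM. In the Ler against Col-0 contrast 83% of 100 genes changed by 1 on the log2 scale were called. Of 100 genes changed by 2, 97% were called, with 13 of 19105 unchanged genes. These rates do not cover changed genes of lower mean level. Alternatives were other scalings and filters, DESeq2 1.42.0, fewer groups, a replicate block, removal of the length trend (a lowess with span 0.3), a root marker covariate and the omission of single libraries. Promoters were read from the TAIR10.1 genome.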

Additional observations from a re-analysis of the deposited data

Results flagged for a closer look

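The differences below are those between the wild-type contrast (Ler minus Col-0) and the single-mutant contrast (asil2-2 minus the mean of asil1-1 and asil2-1), each called in edgeR's quasi-likelihood test of the difference at an adjusted p under 0.05. A positive log2 value means that the gene was relatively higher in Ler among the wild types than in asil2-2 among the single mutants. They are given for the named genes, and a difference can come from any of the 5 groups.

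ASIL1 and ASIL2, whose alleles the single mutants carry, differed by −1.46 and 2.39. Among glucosinolate genes the values were −0.78 for ESP, −0.48 for MAM1, −2.01 for MAM3 (IMS2 in the gene table), −1.60 for SOT17, −0.72 for SOT16, −0.78 for SUR1 and −1.76 for CYP81F4. ESP had the same direction in both contrasts, as did MAM3.

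In immunity the values were 0.84 for RPP5, 1.38 for CRK41, −4.15 for ACD6, −1.66 for DMR6, 1.18 for CBP60G and 0.91 for SAG101. The stress-response genes CZF1 (3.15), WRKY11 (2.1) and PUB22 (2.02) and the abscisic acid hydroxylase gene CYP707A3 (4.77) had high levels in asil2-1. The jasmonate regulators MYC2 and MYC3 differed by 1.48 and 1.38.

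In flavonoid synthesis the values were −2.37 for 4CL3, −2.21 for CHIL, −1.36 for TT5, −2.13 for the anthocyanin glucosyltransferase gene UGT75C1 (AT4G14090) and −1.27 for UGT78D1. In photosynthesis they were −1.40 for PETE2 (DRT112), −1.30 for PSAH2, −0.93 for PSAH-1, −0.88 for PSAG and −1.27 for PSBR. In the clock they were −1.27 for CCA1, −1.11 for LHY, 0.89 for PRR3 and 1.18 for TOC1.

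In flowering and development the values were 0.77 for SOC1 (AGL20), −0.82 for MAF1, −2.06 for FLC, 0.46 for SCRM2, 0.41 for CLV1, −1.16 for the meristem gene KNAT1, −1.85 for SEP1, 0.58 for SCR, −4.12 for ETC2 and −2.72 for TRY, another repressor of leaf hairs. In DNA demethylation they were 1.01 for ROS1 (DML1) and −1.30 for DML3. In the cold response they were 0.75 for COR47 and 5.26 for CBF1.

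In mineral nutrition the values were 1.26 for MOT1, −2.33 for FIT (FRU), −3.18 for PHT1;1, −1.23 for PHT1;4 and 0.77 for APR3. Of the remaining genes, GSTU19 differed by 0.81 and GSTU9 by −3.05, the wax regulator gene MYB30 by 1.08, the cutin gene DCR (PEL3) by −1.34, the thalianol synthase gene THAS1 by −3.39 and the oxygenase-family gene 2A6 by −1.52.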

How the results depend on the processing

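The count of genes called between Ler and Col-0 stayed within 1.5 times of 7077 under every alternative run except representing Col-0 by replicate 3 alone, which gave 3762 (1643 higher, 2119 lower), with fewer samples in the fit. It was 6948 with DESeq2, 6878 with RLE scaling, 6876 with library size alone, 6948 with a filter of 1 CPM in 3 libraries, 7041 with no filter, 5801 with only the 6 libraries, 6708 with the length trend removed and 6871 with the root covariate. Leaving out 1 library gave 5535 to 6565 calls, 2655 to 3274 higher and 2880 to 3407 lower, and for the single-mutant contrast 5747 to 7388. The single-mutant contrast gave 7023 calls with asil1-1 alone and 6727 with asil2-1 alone as its Col-0 side, alternatives chosen after seeing the data.

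The difference of the contrasts was less stable. Its 3245 calls became 675 (341 higher, 334 lower, and 213 and 219 of at least 2-fold) with Col-0 represented by replicate 3 alone. Its 887 calls of at least 2-fold on the lower side became 563 with the root covariate and 445 with the length trend removed as well, where the higher calls were 1159. The cause was not tested. Leaving out 1 library gave 1990 to 3912 calls, 1042 to 2063 higher, 932 to 1849 lower, 402 to 648 of at least 2-fold higher and 555 to 1213 of at least 2-fold lower. The lowest totals came without Col-0 replicate 2 (1990), Col-0 replicate 1 (2101) and Ler replicate 3 (2144), the fewest higher calls without asil2-2 replicate 1 (1042).

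Of the 144 named genes called, 100 were called under every alternative in which they were tested and 127 in every such fit that left out 1 library, and 0 changed direction while called. Some named genes were not tested under every alternative. Most losses, 40 genes, came with Col-0 represented by replicate 3 alone. The replicate block gave 7132 calls (3523 higher, 3609 lower), 7432 in the single mutants and 3352 for the difference. Same-numbered Col-0 and Ler libraries had correlations of 0.213, −0.0369 and 0.283 in their deviations from the group means. Differently numbered ones had correlations from −0.318 to 0.209. The main fit treated the libraries as unpaired, and whether equal numbers mark libraries handled together was not tested.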

Other observations

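Several genes outside the lists separated the accessions in all libraries. TRM9, which carries the name of a tRNA methyltransferase, was counted at 34.9, 28.2 and 33.6 CPM in Col-0 and at 3.27, 3.16 and 4.03 CPM in Ler (−3.21 ± 0.15, adjusted p = 2.83e-13), and was lower in asil2-2 as well (−3.01). GDPD4, a glycerophosphodiester phosphodiesterase gene, fell from 41.2, 43.5 and 47.1 CPM to 4.05, 5.13 and 5.67 CPM (−3.11 ± 0.15, adjusted p = 2.86e-13). PP2-B10, a phloem protein gene, fell from 18.3, 17.9 and 18.4 CPM to 0.623, 0.754 and 0.596 CPM (−4.71 ± 0.24, adjusted p = 9.02e-13). COAB, of coenzyme A synthesis, rose from 14.9, 17.0 and 19.95 CPM to 67.3, 66.5 and 60.8 CPM (1.90 ± 0.11, adjusted p = 7.45e-12). CYP89A6 was at 0.1203, 0.378 and 0.108 CPM in Col-0 and at 8.41, 6.10 and 5.44 CPM in Ler (4.89 ± 0.52, adjusted p = 2.55e-07), and its relative CYP89A7, with which it can share reads, was also higher (4.05). ATYKT62, named for a vesicle SNARE, had no count in Col-0 and 104 counts in Ler, at least 19.6-fold higher with 3 counts over the Col-0 group as the floor.

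Seed markers were near absence. The 12 markers in the files summed to 1.81, 0.661 and 0.976 CPM in Col-0 and to 0, 0.251 and 0.596 CPM in Ler.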
